A study of Homo sapiens with 12 samples.

Results

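Total RNA of HEK293T cells treated with an inhibitor of PRMT4 was compared with total RNA of cells given DMSO, the solvent control. HEK293T is a human embryonic kidney cell line that carries the SV40 large T antigen. The genes described are the 2594 of 15534 in the deposited table whose FPKM averaged at least 20 over all 12 libraries. That mean includes both inputs compared, so a gene near the minimum can enter through a high value in either of them. AZIN1, just inside that minimum at 20.002 FPKM, had 14.00 FPKM in the PRMT4 inhibitor input, against 13.00 FPKM in the DMSO input, and GAD1, just outside at 19.984 FPKM, had 8.67 against 9.08 FPKM. FPKM counts fragments scaled by transcript length and by the size of the library, so levels of different genes can be set side by side. Between libraries it also depends on what else each library holds: over the whole table FPKM summed to 329897 in the PRMT4 inhibitor input and 201967 in the DMSO input. The difference given for a gene is that of log2(FPKM + 1), PRMT4 inhibitor minus DMSO, less the median difference over the 2594 genes. The study also treated cells with a PRMT1 inhibitor, and for each of its 3 treatments it sequenced the total input and RNA from sucrose gradient fractions with 1, 2 and 3 or more ribosomes. That design gave 1 library per treatment and fraction. All cells were of the same line, and the compounds, doses, treatment times and RNA selection are not given in the sources used here. With 1 library a side there was no test and no p-value, the spread between cultures is unknown, and differences are described by their size.

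PRMT4, also named CARM1, is an enzyme that methylates arginines on histone H3, on transcription coactivators such as those of nuclear receptors, and on proteins that bind or splice RNA. It is recruited to promoters and enhancers, where its marks accompany active transcription, and the glycolytic enzymes GAPDH and PKM are among its reported substrates. An mRNA that is more abundant in a cell is usually also more abundant in each ribosome fraction, while a change in translation moves an mRNA between fractions.

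Besides histones, 11 genes were at least 2-fold lower in the PRMT4 inhibitor input and at least 1.5-fold lower in each of its 3 ribosome fractions, and 4 of these, DCXR, COTL1, RND2 and TMEM160, have no gene on the opposite strand of the same place. Of the 40 genes at least 1.5-fold lower in all 3 fractions, histones left out, 11 were at least 2-fold lower in the input and 11 at least 2-fold higher. Promoters are shown for DCXR, COTL1 and TMEM160, the 3 of the 4 that matched an entry of the promoter table. Each runs from 250 bases before to 50 bases after the transcription start (RefSeq, GRCh38.p14), 5′ to 3′ on the strand of the gene, and capitals mark CCAAT, a box that binds the factor NF-Y, on either strand.
DCXR, chr17:82037648-82037947, minus strand: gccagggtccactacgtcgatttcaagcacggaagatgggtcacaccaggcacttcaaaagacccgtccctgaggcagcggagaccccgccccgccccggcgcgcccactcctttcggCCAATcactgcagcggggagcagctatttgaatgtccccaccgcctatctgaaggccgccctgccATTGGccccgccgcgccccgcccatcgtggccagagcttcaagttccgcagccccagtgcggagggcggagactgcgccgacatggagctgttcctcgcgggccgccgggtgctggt
COTL1, chr16:84618029-84618328, minus strand: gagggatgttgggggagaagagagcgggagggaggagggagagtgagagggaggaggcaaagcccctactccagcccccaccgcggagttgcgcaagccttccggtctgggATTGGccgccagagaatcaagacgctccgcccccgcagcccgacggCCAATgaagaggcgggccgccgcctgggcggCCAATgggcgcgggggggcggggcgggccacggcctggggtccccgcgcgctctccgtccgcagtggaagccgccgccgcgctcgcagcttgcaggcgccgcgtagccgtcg
TMEM160, chr19:47048575-47048874, minus strand: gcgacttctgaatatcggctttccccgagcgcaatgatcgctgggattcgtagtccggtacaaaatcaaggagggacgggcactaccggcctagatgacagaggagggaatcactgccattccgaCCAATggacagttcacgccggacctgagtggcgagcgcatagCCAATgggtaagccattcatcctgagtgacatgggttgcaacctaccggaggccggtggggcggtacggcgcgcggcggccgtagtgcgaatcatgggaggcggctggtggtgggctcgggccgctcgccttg
DCXR held 2 such boxes, COTL1 3 and TMEM160 2. Among genes with no opposite-strand exon, and without histones, CCAAT was found in 43.0% of the promoters of 142 genes at least 2-fold higher in the PRMT4 inhibitor input, in 44.7% of those of 159 genes at least 2-fold lower, and in 39.3% of all 610. In the whole table of 27305 promoters its share was 35.7%. Of the other motifs searched on both strands, ACGTG was in 17.6% of the promoters of the higher genes and in 30.8% of those of the lower genes, against 23.8% of all 610. ACGTG, the core of the hypoxia response element, lies within CACGTG, the E-box that MYC binds, which was in 7.04%, 9.43% and 9.18% of the same 3 sets. Median promoter GC content was 60.7% for the higher genes, 66.3% for the lower genes and 64.7% for all 610, and its part in these shares was not tested.

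The libraries were shallow. From the steps in the FPKM of genes with 1 annotated transcript, 437600 to 602400 fragments were estimated per library, with 508900 in the PRMT4 inhibitor input and 542000 in the DMSO input. The median gene of the 2594 had 22 fragments in the PRMT4 inhibitor input and 12 in the DMSO input, and 23.1% and 42.6% of genes had under 10. Fragments of a gene were estimated from its FPKM and the median length of its annotated transcripts, and any gene above 0 was given at least 1. Counting intervals are 95% Clopper-Pearson intervals from these estimated fragments and cover counting error only. They leave out the error of that length and of setting low values to 1. Of the 2594 genes, 17 were listed at 0 in the PRMT4 inhibitor input alone, 50 in the DMSO input alone and 7 in both.

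Most of the genes overlap a gene on the other strand, which limits what their values can be said to measure. The label of the input libraries gives both a total input and ribosome-bound mRNA, and they are taken here as the total input. The library kit keeps the strand of the RNA, but the strand setting of the counting is not given in the sources used here. An exon of another gene lay on the opposite strand for 67.7% of the 2534 annotated genes, against 39.3% of the annotated genes of the whole table. Of 10 markers of the line in the table, 8 were above 0 in the PRMT4 inhibitor input and 9 in the DMSO input. VIM had 145 FPKM in the PRMT4 inhibitor input, against 91.7 FPKM in the DMSO input, and KRT8, opposite KRT18, had 595 FPKM in the PRMT4 inhibitor input, against 651 FPKM in the DMSO input. CDH2, another of these markers, was listed at 0 in both. Of 26 markers of blood, neural, vascular, liver and other cells, 9 were in the table, with 6 above 0 and a summed level of 346 FPKM in the PRMT4 inhibitor input, and 5 above 0 and 114 FPKM in the DMSO input. In the other 6 libraries of the 2 treatments the sum was 195 to 585 FPKM, and its part in the results was not tested. GFAP, an astrocyte marker opposite CCDC103, had 144 FPKM in the PRMT4 inhibitor input, against 63.6 FPKM in the DMSO input. CD79A and COL3A1 were at 0 in both inputs. EEF1A1, one of the most abundant mRNAs of most cells, had only 59.9 FPKM in the PRMT4 inhibitor input, against 17.2 FPKM in the DMSO input. Reads of a gene and of its opposite-strand partner cannot be told apart in these values, so a named partner is given beside most genes described in detail.

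The input pair differed more than any pair of ribosome fractions. Before centring, the median gene was higher in the PRMT4 inhibitor input by 0.81 on the log2 scale, against a shift of 0.01, 0.06 and 0.06 in the fractions of 1, 2 and 3 or more ribosomes. Centring removes that shift, and in bulk RNA fewer cells of a kind and less RNA per cell cannot be told apart. After centring, 694 genes (26.8%) were at least 2-fold higher in the PRMT4 inhibitor input and 522 (20.1%) at least 2-fold lower. Left uncentred, 1158 genes (44.6%) were past 2-fold above DMSO and 202 (7.79%) past 2-fold below. At 4-fold the counts were 304 higher and 158 lower, and at 1.5-fold 34.6% of genes were higher and 31.8% lower, which is the background for the gene lists. The middle 50.0% of genes spanned 1.89 on the log2 scale in the input, against 0.97, 0.73 and 0.81 in the 3 fractions. Of all genes 11.4%, 6.48% and 8.1% in these fractions were at least 2-fold higher and 9.98%, 5.4% and 7.4% at least 2-fold lower. Among the 605 genes with a mean of at least 100 FPKM, 111 were at least 2-fold higher and 131 at least 2-fold lower, with a median of -0.16.

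**Figure D1:**
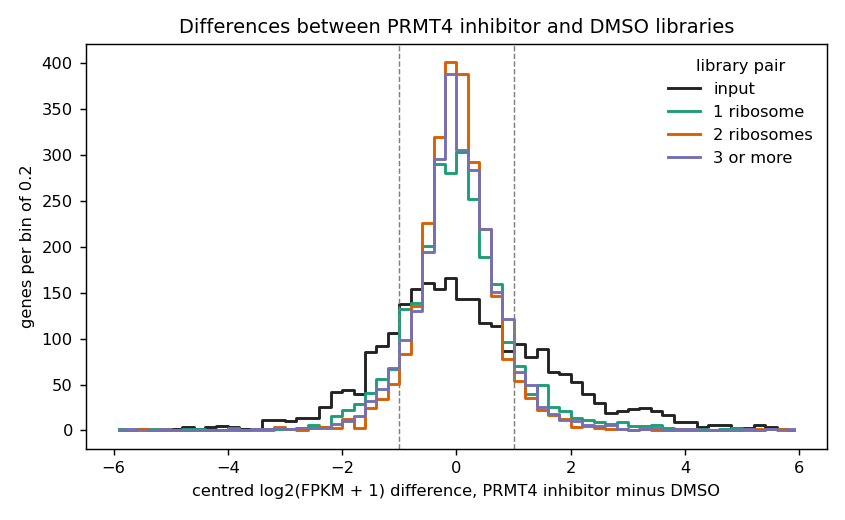
Number of genes (vertical axis, per bin of 0.2) by centred log2(FPKM + 1) difference, PRMT4 inhibitor minus DMSO (horizontal axis), for the input pair and the 3 pairs of ribosome fractions; dashed lines mark 2-fold. The input curve is the widest, with 26.8% of the 2594 genes at least 2-fold higher and 20.1% at least 2-fold lower.

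The input difference moved with the GC content of the transcripts, and that of the ribosome fractions hardly did. Genes under 40% GC had a median difference of 1.85 in the input (92 genes), genes of 50 to 55% GC one of 0.37 (464 genes) and genes over 60% GC one of -0.55 (702 genes). In the fractions no GC class had a median outside -0.07 to 0.16. Over the 2534 annotated genes Spearman's rho between GC content and difference was -0.42 in the input and 0.05, -0.06 and -0.08 in the 3 fractions, and it was -0.40 among the 605 genes of at least 100 FPKM. Genes under 40% GC had a median level of 65.9 FPKM in the PRMT4 inhibitor input, 15.9 FPKM in the PRMT1 inhibitor input and 10.0 FPKM in the DMSO input. Those over 60% GC had medians of 40.7, 79.9 and 33.3 FPKM in the same order. The part of GC content in any single difference was not tested. A GC-centred difference, less the median of the 201 genes nearest in GC content, is therefore given beside the list medians; by it 517 genes (20.4%) were at least 2-fold higher and 502 (19.8%) at least 2-fold lower, and 30.1% and 30.3% were past 1.5-fold.

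Position relative to genes on the other strand moved with the input difference as well. The 169 genes that lie in the intron of an opposite-strand gene had a median difference of 0.70 (0.49 GC-centred), the 1715 genes with an opposite-strand exon one of 0.06 (0.06 GC-centred), and the 650 genes with no opposite-strand gene one of -0.46 (-0.30 GC-centred). Of the intronic genes 42.0% were at least 2-fold higher and 11.2% at least 2-fold lower, while of the 650 genes with no opposite-strand gene 117 were higher and 211 lower. Median levels of the intronic genes were 45.6 FPKM in the PRMT4 inhibitor input and 14.7 FPKM in the DMSO input, against 49.7, 49.0 and 36.6 FPKM in the PRMT4 inhibitor fractions and 46.3, 36.3 and 29.6 FPKM in the DMSO fractions. For these genes the DMSO input was the lowest of the 8 libraries. The same held for both other classes, with DMSO input medians of 26.8 FPKM (opposite-strand exon) and 22.5 FPKM (no opposite-strand gene).

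**Figure D2:**
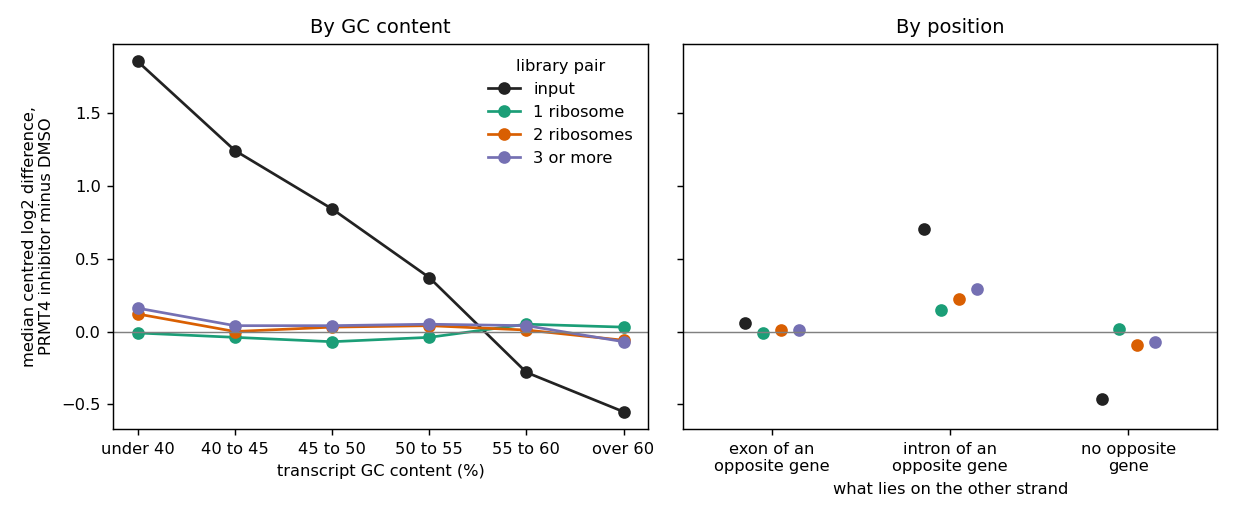
Median centred log2(FPKM + 1) difference, PRMT4 inhibitor minus DMSO (vertical axis), for the input and the 3 ribosome fractions, by transcript GC content in percent (left) and by what lies on the other strand (right). The input medians run from 1.85 under 40% GC to -0.55 over 60% GC, and those of the fractions by GC content stay between -0.07 and 0.16.

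Matrix and receptor genes show the intronic pattern gene by gene. OGN, OMD, ECM2 and ASPN encode proteins of the extracellular matrix and lie side by side in introns of CENPP, a kinetochore gene on the other strand. OGN had 66.7, 51.7, 67.1 and 56.1 FPKM in the PRMT4 inhibitor libraries, against 4.15, 30.9, 41.7 and 18.6 FPKM in the DMSO libraries. OMD had 50.4, 29.2, 49.01 and 28.3 FPKM in the PRMT4 inhibitor libraries, against 0.8, 30.5, 12.3 and 13.8 FPKM in the DMSO libraries (input 95% counting interval 2.63 to 10.50). Every PRMT4 inhibitor value of both genes lay above the DMSO input, as did every DMSO fraction, so the low library was the DMSO input. ECM2 had 54.98 FPKM in the PRMT4 inhibitor input, against 3.48 FPKM in the DMSO input. ASPN, whose mean is below the minimum, had 18.8 FPKM in the PRMT4 inhibitor input, against 0.88 FPKM in the DMSO input. CENPP itself had 107 FPKM in the PRMT4 inhibitor input, against 48.8 FPKM in the DMSO input. The G protein-coupled receptor genes GPR18 and GPR183 lie in introns of UBAC2, a gene of the endoplasmic reticulum membrane. GPR18 had 71.5, 44.4, 52.4 and 30.00 FPKM in the PRMT4 inhibitor libraries, against 4.19, 51.8, 28.1 and 17.01 FPKM in the DMSO libraries. GPR183 had 51.9 FPKM in the PRMT4 inhibitor input, against 2.38 FPKM in the DMSO input, while UBAC2 was near 0 in both, with 0.83 against 0.78 FPKM.

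Genes with a mean of at least 100 FPKM over the 12 libraries had large differences at both ends, several of them on few fragments in 1 of the inputs. PIGF, which adds ethanolamine phosphate to GPI anchors and has exons opposite CRIPT and RHOQ, had 1020.5 FPKM in the PRMT4 inhibitor input, against 31.6 FPKM in the DMSO input, a difference of 4.16 (95% counting interval 3.40 to 5.19, 2.72 GC-centred). In the fractions its differences were 0.03, -0.19 and 0.00, so the difference was seen in the input alone of the 4 pairs. PSMA3, a proteasome core subunit within introns of ARMH4, had 328 FPKM in the PRMT4 inhibitor input, against 8.06 FPKM in the DMSO input and 6.07 FPKM in the PRMT1 inhibitor input (4.38, 95% counting interval 2.78 to 7.75). PSMA3 reaches a mean of 100 FPKM only through its high PRMT4 inhibitor input. CFAP126, a cilium gene, had 220.0 FPKM in the PRMT4 inhibitor input, against 2.95 FPKM in the DMSO input (95% counting interval 2.89 to 10.74 for the log2 difference), and SDHC, its opposite-strand partner and a subunit of succinate dehydrogenase, had 73.8 against 8.36 FPKM. NDUFAF7, an assembly factor of respiratory complex I opposite PRKD3 and CEBPZ, had 163 FPKM in the PRMT4 inhibitor input, against 3.6 FPKM in the DMSO input (4.35, 95% counting interval 2.61 to 10.47). In the DMSO input CFAP126 and NDUFAF7 rest on 1 estimated fragment each and PSMA3 on 2. At the low end stood MT-ND6, with 1332 FPKM in the PRMT4 inhibitor input, against 5993 FPKM in the DMSO input (-2.97, 95% counting interval -3.17 to -2.78). SCO2, a copper chaperone of cytochrome oxidase opposite an unnamed gene, had 14.8 FPKM in the PRMT4 inhibitor input, against 177 FPKM in the DMSO input (-4.29, 95% counting interval -5.96 to -3.29). CALM3, which encodes calmodulin and lies opposite PPP5D1P, had 45.9 FPKM in the PRMT4 inhibitor input, against 260.1 FPKM in the DMSO input (-3.28, 95% counting interval -4.27 to -2.44). RPS2 and SYT15B completed the low end, with 62.2 against 260.4 FPKM and 4.11 against 57.8 FPKM. Both have near-identical copies in the genome, so their counts are uncertain, and in the PRMT4 inhibitor input SYT15B rests on 3 estimated fragments and SCO2 on 6. With 1, with 2 and with 3 or more ribosomes SCO2 differed by -0.81, -0.99 and -0.41, CALM3 by 1.61, -0.21 and -0.79 and RPS2 by 2.60, 0.28 and 0.24. With 1 ribosome CALM3 and RPS2 were thus higher with the PRMT4 inhibitor, opposite to the input.

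Among genes with no opposite-strand exon and above 0 in all 8 libraries, the lowest 10 were of mixed function and rest on 1 to 6 estimated fragments in the PRMT4 inhibitor input. LDHA, the lactate dehydrogenase of anaerobic glycolysis, had 5.64, 13.03, 14.3 and 13.8 FPKM in the PRMT4 inhibitor libraries, against 62.7, 14.7, 12.5 and 22.3 FPKM in the DMSO libraries. Its DMSO input was the highest of the 8 values, and its PRMT4 inhibitor input the lowest. LDHA averaged 23.1 FPKM over all libraries, near the minimum, and the high DMSO input is part of that mean. Without the DMSO input the mean of its other libraries lies below the minimum, so LDHA enters only through that high value. The input difference was -4.07 (95% counting interval -7.18 to -2.00, -4.85 GC-centred). RAD23B, a DNA repair and proteasome shuttle factor, had 3.46 FPKM in the PRMT4 inhibitor input, against 51.97 FPKM in the DMSO input (-4.38, 95% counting interval -10.34 to -2.31). GATAD2A, a subunit of the NuRD chromatin complex, had 13.8 FPKM in the PRMT4 inhibitor input, against 127 FPKM in the DMSO input (-3.91, 95% counting interval -5.80 to -2.36), but in the fraction of 1 ribosome its difference was 4.73 in the other direction. EIF4A3, the helicase of the exon junction complex, had 12.6 FPKM in the PRMT4 inhibitor input, against 77.5 FPKM in the DMSO input (-3.33, 95% counting interval -5.05 to -2.28). GNB1, a G protein beta subunit, had 8.03 FPKM in the PRMT4 inhibitor input, against 50.1 FPKM in the DMSO input (-3.31, 95% counting interval -5.39 to -1.89), and UBE2M, the conjugating enzyme for NEDD8, had 13.4 FPKM in the PRMT4 inhibitor input, against 91.3 FPKM in the DMSO input (-3.48, 95% counting interval -6.79 to -1.52). EIF4A3, the best counted, had 6 estimated fragments in the PRMT4 inhibitor input and 42 in the DMSO input, and LDHA had 2 and 20. METTL26, DCXR and LDHB made up the rest of the lowest 10 with SYT15B, at 3.01 against 26.6 FPKM, 7.01 against 43.4 FPKM and 13.2 against 74.6 FPKM.

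The highest genes of the same class were of mixed function. TAF9B, a TFIID-related coactivator subunit, had 80.3 FPKM in the PRMT4 inhibitor input, against 1.44 FPKM in the DMSO input (4.25, 95% counting interval 2.76 to 10.61). SLC6A4, the serotonin transporter of neurons and platelets, had 112, 53.5, 64.6 and 54.2 FPKM in the PRMT4 inhibitor libraries, against 3.75, 31.9, 65.6 and 15.1 FPKM in the DMSO libraries. The PRMT4 inhibitor input was the highest and the DMSO input the lowest of those 8 values. Its input difference was 3.77 (95% counting interval 2.74 to 6.03), and its PRMT1 inhibitor input held 5.49 FPKM. NCBP1, the large subunit of the nuclear cap-binding complex, had 54.7 FPKM in the PRMT4 inhibitor input, against 1.47 FPKM in the DMSO input (3.69, 95% counting interval 0.60 to 8.68). LEAP2, a liver peptide, had 43.8 FPKM in the PRMT4 inhibitor input, against 1.79 FPKM in the DMSO input (3.20, 95% counting interval 0.79 to 8.84). The others lie in introns of opposite-strand genes: PSMA3 and OMD, given above, CKMT2, a mitochondrial creatine kinase opposite CKMT2-AS1, ACRV1, a sperm acrosome gene opposite CHEK1, NFE2L3, a transcription factor opposite HNRNPA2B1, and AMZ1, a peptidase opposite GNA12. ACRV1 meets the minimum mean only through its high PRMT4 inhibitor input. NFE2L3 was the best counted of them, with 143 FPKM in the PRMT4 inhibitor input, against 7.67 FPKM in the DMSO input (3.24, 95% counting interval 2.41 to 4.53). GC-centred differences of the 10 highest ran from 1.81 for NFE2L3 to 3.54 for AMZ1, and those of the 10 lowest from -5.98 for RAD23B to -2.86 for DCXR.

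Genes with an opposite-strand exon reached differences of like size. CCDC47, an endoplasmic reticulum calcium and translocon factor opposite DDX42, had 92.2 FPKM in the PRMT4 inhibitor input, against 0.56 FPKM in the DMSO input (5.10, 95% counting interval 2.82 to 10.68). DNM1L, the GTPase that divides mitochondria, had 178 FPKM in the PRMT4 inhibitor input, against 3.63 FPKM in the DMSO input (4.46, on 54 estimated fragments against 1), and MYOT, a muscle Z-disc gene opposite PKD2L2-DT, had 79.7 FPKM in the PRMT4 inhibitor input, against 0.84 FPKM in the DMSO input (4.65, 95% counting interval 0.88 to 8.91). On the low side POLR2E, a subunit shared by the RNA polymerases and opposite ARHGAP45, had 1.23 FPKM in the PRMT4 inhibitor input, against 30.6 FPKM in the DMSO input (-4.63, 95% counting interval -10.02 to -1.92), and MPDU1, a glycosylation factor opposite FXR2, had 10.2 FPKM in the PRMT4 inhibitor input, against 59.8 FPKM in the DMSO input (-3.25, 95% counting interval -5.91 to -1.78). Of the genes listed at 0 in 1 input, RAB5C, an endosome GTPase, TFDP1, the partner of E2F factors, and ARRB2, an arrestin, were at 0 in the PRMT4 inhibitor input against 36.3, 24.7 and 14.3 FPKM in the DMSO input. H3-4, a testis histone H3, was at 82.8 FPKM in the PRMT4 inhibitor input and at 0 in the DMSO input. No fold is given against a library at 0.

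Most glycolysis genes lay below the median in the input. Of the 13 genes above the minimum, out of 24 listed, 1 was at least 1.5-fold higher and 8 were at least 1.5-fold lower, beside shares of 34.6% and 31.8% over all genes, and the median difference was -1.26 (-1.06 GC-centred, -0.45 without centring). With a minimum of 5 FPKM, which takes in 17 of the genes, the median was -0.56, and over the 4 genes that lie outside any opposite-strand gene it was -0.58. LDHB, which favours lactate oxidation, had 13.2 FPKM in the PRMT4 inhibitor input, against 74.6 FPKM in the DMSO input (-3.21). GAPDH had 20.2 FPKM in the PRMT4 inhibitor input, against 36.9 FPKM in the DMSO input (-1.64), PFKM, the muscle-type phosphofructokinase opposite SENP1, had 161 FPKM in the PRMT4 inhibitor input, against 276 FPKM in the DMSO input (-1.58), and ALDOA, an aldolase, had 124 FPKM in the PRMT4 inhibitor input, against 201.5 FPKM in the DMSO input (-1.50). The glucose transporter SLC2A1 (-1.42), GPI (-1.26) and ENO1 (-0.86) were lower by less. PKM and PGAM1 lay near the median, at 0.10 and 0.27, and SLC16A3, the lactate exporter, was higher at 0.86. In the ribosome fractions the medians of the list were -0.04, 0.11 and 0.00, so the low input values were not matched there. For LDHA the PRMT4 inhibitor fractions held 13.03, 14.3 and 13.8 FPKM and the DMSO fractions 14.7, 12.5 and 22.3 FPKM. For PFKM they held 274, 382 and 348 FPKM, against 346, 588 and 453 FPKM, each lower with the PRMT4 inhibitor.

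**Figure D3:**
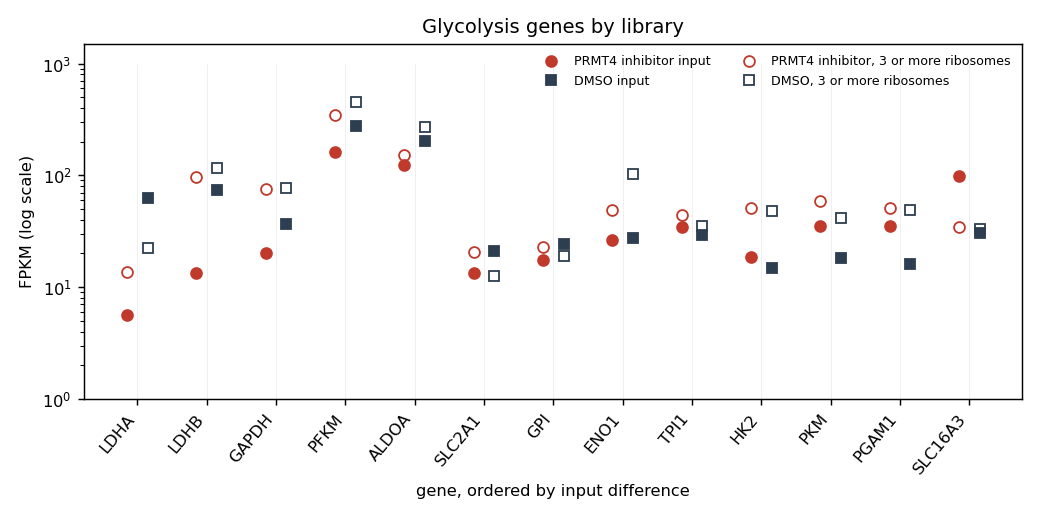
FPKM on a log scale (vertical axis) of the 13 glycolysis genes, ordered by input difference, in the PRMT4 inhibitor and DMSO inputs (filled) and fractions of 3 or more ribosomes (open). LDHA stands at 5.64 FPKM in the PRMT4 inhibitor input and 62.7 FPKM in the DMSO input, and meets the minimum mean only through the latter. Its values with 3 or more ribosomes are 13.8 FPKM with the PRMT4 inhibitor and 22.3 FPKM with DMSO.

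Other metabolic lists were small or spread to both sides. Nuclear-encoded subunits of oxidative phosphorylation (22 of 72 listed genes) had a median of -0.72 (-0.37 GC-centred, 0.08 without centring), with 6 at least 1.5-fold higher and 12 at least 1.5-fold lower. COX5A, a cytochrome oxidase subunit, was at -2.47 and NDUFB10, of complex I, at -1.46, while NDUFB2, of the same complex and opposite BRAF, was at 3.75 with 165 against 6.07 FPKM (95% counting interval 1.75 to 9.68). The tricarboxylic acid cycle (5 of 23 listed genes) had a median of -0.86 (-0.23 GC-centred), with 2 at least 1.5-fold higher and 3 at least 1.5-fold lower, and SDHC was highest, at 2.19. Cholesterol synthesis and uptake genes (5) had a median of -0.78 (-0.45 GC-centred), with 1 at least 1.5-fold higher and 3 at least 1.5-fold lower. Of them TM7SF2, a sterol reductase with no opposite-strand gene, was lowest, with 17.4 FPKM in the PRMT4 inhibitor input, against 49.3 FPKM in the DMSO input (-2.26). Fatty acid genes (5) had a median of 0.40 (0.22 GC-centred), where SLC25A1, which exports citrate from mitochondria, was at -2.07 and SREBF1, a lipogenic transcription factor, at 0.63. The 6 genes of serine, one-carbon and nucleotide synthesis had a median of -0.91 (-1.17 GC-centred), with 1 at least 1.5-fold higher and 3 at least 1.5-fold lower. PHGDH, the first enzyme of serine synthesis, had 5.47 against 13.8 FPKM, NME2 was at -2.31 and TYMS, thymidylate synthase, at 1.24. TKT and TALDO1, of the pentose phosphate pathway, lay near the median, at -0.41 and -0.28.

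Cytosolic ribosomal protein genes had list medians below 0 in the input. Of the 39 large-subunit ribosomal protein genes above the minimum, out of 47 listed, 9 were at least 1.5-fold higher and 20 were at least 1.5-fold lower, beside shares of 34.6% and 31.8% over all genes. Their median was -0.61 (-0.70 GC-centred, 0.19 without centring). Of the 30 small-subunit genes above the minimum, out of 33 listed, 6 were at least 1.5-fold higher and 12 were at least 1.5-fold lower, with a median of -0.27 (-0.89 GC-centred, 0.54 without centring). With no minimum, and so centred on the median of all 15534 genes, the medians were 0.04 over 47 large-subunit genes and 0.48 over 33 small-subunit genes. At a minimum of 5 FPKM the same genes had medians of -0.59 and -0.16. RPL18, opposite SPHK2, had 6.75 FPKM in the PRMT4 inhibitor input, against 40.6 FPKM in the DMSO input (-3.23), and RPL13, with no opposite-strand gene, had 169 FPKM in the PRMT4 inhibitor input, against 299 FPKM in the DMSO input (-1.62, 95% counting interval -2.17 to -1.12). RPS16 was at -2.08, while RPL7 (2.92) and RPS3A (1.95) were higher. Ribosomal protein genes have many near-identical pseudogenes, so the split of reads among copies is uncertain. RACK1, a ribosome-bound scaffold and the most abundant of the list, had 423 FPKM in the PRMT4 inhibitor input, against 202 FPKM in the DMSO input (0.26). The medians in the 3 fractions were -0.52, -0.15 and -0.14 for the large subunit and -0.47, -0.21 and -0.19 for the small one.

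Translation factors lay on both sides of the median in the input. Of the 18 initiation and elongation factors above the minimum, out of 41 listed, 6 were at least 1.5-fold higher and 9 were at least 1.5-fold lower, with a median of -0.59 (-0.80 GC-centred, 0.22 without centring). At a minimum of 5 FPKM, over 37 factors, the median was 0.45. EIF3B, EIF3H and EIF3G, subunits of the EIF3 scaffold, were at -2.73, -1.89 and -1.74, and EIF4A1, the cap-complex helicase, at -2.04 with 6.71 against 17.2 FPKM. The 3 measured subunits of the nucleotide exchange factor EIF2B were above the median, EIF2B1 with 69.5 against 1.58 FPKM (3.97, 95% counting interval 1.04 to 9.05), EIF2B5 with 47.8 against 4.11 FPKM (2.45) and EIF2B4, by less than 1.5-fold, with 44.95 against 18.5 FPKM (0.43). All 3 have opposite-strand exons. EEF2, the translocation factor, had 56.9 FPKM in the PRMT4 inhibitor input, against 79.9 FPKM in the DMSO input (-1.29, 95% counting interval -2.49 to -0.17), and EEF1D was at -1.27. For the ribosome biogenesis genes the median was 0.01 (-0.55 GC-centred), with NPM1, a nucleolar chaperone, highest (31.9 against 1.15 FPKM, 3.13) and RRP12 lowest (-1.88). Mitochondrial ribosomal proteins (15 genes) had a median of -0.03 (-0.34 GC-centred), between MRPL9 at -1.76 and MRPS18C, opposite ABRAXAS1, at 3.35.

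Splicing regulators and reported PRMT4 substrates were mostly at or below the median. Of the 12 hnRNP and SR genes above the minimum, out of 37 listed, 3 were at least 1.5-fold higher and 6 were at least 1.5-fold lower, with a median of -0.60 (-1.17 GC-centred, 0.21 without centring). PTBP1, a repressor of exon inclusion, had 12.8 FPKM in the PRMT4 inhibitor input, against 28.5 FPKM in the DMSO input (-1.91), and SRSF1, an SR activator, had 87.6 FPKM in the PRMT4 inhibitor input, against 149.4 FPKM in the DMSO input (-1.57, 95% counting interval -2.10 to -1.08). HNRNPH1 was at -1.44, and SRSF9, opposite GATC, was highest with 641 FPKM in the PRMT4 inhibitor input, against 63.2 FPKM in the DMSO input (2.52). In the fractions SRSF9 differed by 0.46, 0.09 and 0.05. Of 5 genes for reported PRMT4 substrates, GATAD2A, GAPDH and PABPC1, the cytoplasmic poly(A)-binding protein (24.4 against 35.9 FPKM, -1.34), were at least 2-fold lower, the RNA helicase DDX5 was at -0.54 and PKM at 0.10. The 5 had an input median of -1.34 (-1.64 GC-centred) and fraction medians of 1.41, -0.49 and 0.02. Of 38 listed genes of spliceosomal snRNP proteins 4 were above the minimum, and all 4 lay below the median, SNRPG at -3.90, SNRPD2, opposite QPCTL, at -3.19, LSM4 at -2.34 and SNRPD3, opposite GUCD1, at -1.11. These values rest on at most 5 estimated fragments in the PRMT4 inhibitor input and at most 15 in the DMSO input, and the counting intervals of SNRPG and SNRPD3 include 0.

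Lists of protein folding, degradation and nuclear transport had medians above 0 in the input, on few genes and not at every minimum. Of the 8 cytosolic chaperones above the minimum, out of 33 listed, 5 were at least 1.5-fold higher and 2 were at least 1.5-fold lower, with a median of 1.33 (0.36 GC-centred). The chaperone median was 0.72 over 20 genes at a minimum of 5 FPKM and 0.20 over 4 genes at 50 FPKM. HSPE1, 1 of the 5 higher genes, was at 0 in the DMSO input. BAG2, an HSP70 cochaperone opposite RAB23, had 83.1 FPKM in the PRMT4 inhibitor input, against 6.52 FPKM in the DMSO input (2.68), and PTGES3, the HSP90 cochaperone p23, had 58.6 FPKM in the PRMT4 inhibitor input, against 6.84 FPKM in the DMSO input (2.12), while STUB1, a chaperone-linked ubiquitin ligase opposite JMJD8 and the best measured of the list, had 721 FPKM in the PRMT4 inhibitor input, against 749 FPKM in the DMSO input (-0.86). Proteasome genes (9 of 38 listed) had a median of 0.85 (0.25 GC-centred), from PSME3, a proteasome activator, at -2.83 to PSMD1 and PSMA3 at 2.80 and 4.38. After GC centring 3 of the 9 were at least 1.5-fold higher and 3 at least 1.5-fold lower. At a minimum of 5 FPKM the median of 20 proteasome genes was -0.48. Nuclear pore and transport genes (6 of 44 listed) had a median of 1.31 (0.38 GC-centred), and one of -0.17 over 21 genes at a minimum of 5 FPKM. NUP88, opposite RPAIN and RABEP1, had 483 FPKM in the PRMT4 inhibitor input, against 49.05 FPKM in the DMSO input (2.47, 95% counting interval 1.73 to 3.27), and RANBP1, a Ran regulator opposite TRMT2A, had 659 FPKM in the PRMT4 inhibitor input, against 706 FPKM in the DMSO input (-0.90). Median GC content was 46.9% for the chaperones, 47.3% for the proteasome and 46.4% for the pore genes, against 55.6% for all genes, and the part of GC content was not tested. The fraction medians of these 3 lists lay between -0.47 and -0.02. Endoplasmic reticulum chaperones, with a median of 0.05 (0.01 GC-centred), spread from EDEM1, a degradation factor, at -1.95 to PDIA3, a disulphide isomerase, at 1.72.

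Adhesion and matrix genes had the highest median of the lists with at least 5 genes, 1.54 (0.81 GC-centred), with 5 at least 1.5-fold higher and 0 at least 1.5-fold lower among 7 of 36 listed genes. That median moved with the minimum. It was 1.21 over 12 genes at 5 FPKM, 0.11 over 3 genes at 50 FPKM and 0.13 over 33 genes with no minimum. LAMB1, a laminin chain opposite DLD, had 76.4 FPKM in the PRMT4 inhibitor input, against 2.65 FPKM in the DMSO input (3.60, 95% counting interval 1.12 to 9.11). ITGB1, the common beta integrin opposite ITGB1-DT, had 38.05 FPKM in the PRMT4 inhibitor input, against 4.27 FPKM in the DMSO input (2.08, 95% counting interval -0.61 to 7.76), on 8 estimated fragments against 1. FN1, fibronectin, which has no opposite-strand gene, had 121, 62.8, 59.7 and 56.1 FPKM in the PRMT4 inhibitor libraries, against 23.01, 22.02, 61.3 and 32.4 FPKM in the DMSO libraries. FN1 was higher with the PRMT4 inhibitor in the input and with 1 and with 3 or more ribosomes, and level with 2 ribosomes. The list median was 1.32 with 3 or more ribosomes and 0.06 and -0.10 with 1 and 2. Cytoskeletal genes split about a median of -0.20 (-0.50 GC-centred): the actin regulators CFL1 (11.5 against 62.9 FPKM, -3.16) and PFN1 (55.4 against 165 FPKM, -2.36) were lower, as were ACTG1 (-1.51) and ACTB (-1.22), while VCL, vinculin, opposite AP3M1, was higher (44.4 against 4.65 FPKM, 2.20). Lysosome and autophagy genes had a median of 0.24, with 3 at least 1.5-fold higher and 0 at least 1.5-fold lower, and after GC centring the median was -0.13 with 2 lower. The 10 coat and secretory genes had a median of 0.05, which GC centring turned to -0.84, with 6 of them at least 1.5-fold lower. The 52 numbered zinc-finger genes, mostly repressors of transcription, had a median of 0.04 (0.40 GC-centred), with 24 at least 1.5-fold higher and 11 at least 1.5-fold lower. ZNF397, opposite ZSCAN30, had 123 FPKM in the PRMT4 inhibitor input, against 5.3 FPKM in the DMSO input (3.49), and ZNF692, with no opposite-strand gene, had 2.8 FPKM in the PRMT4 inhibitor input, against 14.98 FPKM in the DMSO input (-2.88).

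Stress and cell cycle genes gave no common direction. Of 5 immediate early genes 1 was at least 1.5-fold higher and 4 were at least 1.5-fold lower, with a median of -0.97 (-0.52 GC-centred). MYC, the growth regulator, had 39.8 FPKM in the PRMT4 inhibitor input, against 69.5 FPKM in the DMSO input (-1.59), and JUND was at -0.97, FOSL1 at -0.72 and JUNB at 0.71. The 6 p53 targets had a median of -0.31 (-0.37 GC-centred), where MDM2, which degrades p53, was at -1.81, BAX at -1.01 and DDB2 at 0.71, and the fraction medians of the 6 genes were 0.52, 0.81 and 1.19. Hypoxia-response genes had a median of -0.50 (-1.06 GC-centred), with 3 at least 1.5-fold higher and 4 at least 1.5-fold lower, and ranged from PDK1, a kinase that blocks pyruvate entry into mitochondria, at -2.02 to BNIP3L, a mitophagy receptor, at 2.39. The 5 DNA replication genes had a median of 0.27 that changed sign to -0.51 after GC centring, where CDT1, a licensing factor, was at -1.22 and RRM2, of ribonucleotide reductase, at 0.27. The 5 mitosis genes had a median of -0.77 (-1.25 GC-centred), with 1 at least 1.5-fold higher and 3 at least 1.5-fold lower, where UBE2S was at -1.81 and CDC25C at 1.48. The 5 ATF4 targets and aminoacyl-tRNA synthetases had a median of -0.09 (-0.58 GC-centred). The synthetases HARS1, YARS1 and MARS1 lay at -0.09, 0.09 and 0.29, ATF5 at -1.19, and SLC3A2, an amino acid transporter chain, at -2.15 on 1 estimated fragment against 3 (95% counting interval -8.01 to 1.34). Replication-dependent histones had 34 of 41 genes at least 2-fold lower and none at least 2-fold higher.

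Mitochondrially encoded mRNAs did not move together. Of all 13, 8 were at least 1.5-fold higher and 2 were at least 1.5-fold lower, with a median of 0.73 that changed sign to -0.24 after GC centring. MT-ND6, the mRNA of the light strand of the mitochondrial genome, was lowest, and MT-CYB had 632 FPKM in the PRMT4 inhibitor input, against 947 FPKM in the DMSO input (-1.39). MT-ND5 had 470.2 FPKM in the PRMT4 inhibitor input, against 85.3 FPKM in the DMSO input (1.64), and MT-CO1 had 412 FPKM in the PRMT4 inhibitor input, against 145 FPKM in the DMSO input (0.69). With 1 ribosome the median difference of the 13 was 3.78, against 0.61 and 0.26 in the other fractions. For MT-ND6 the fractions held 8280.4, 70.5 and 9.88 FPKM with the PRMT4 inhibitor, against 70.5, 42.2 and 14.9 FPKM with DMSO. Both inputs and the PRMT4 inhibitor library with 1 ribosome were thus the high ones of the 8, and the PRMT1 inhibitor input held 79.1 FPKM. Copies of mitochondrial genes in the nuclear genome make these values uncertain.

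**Figure D4:**
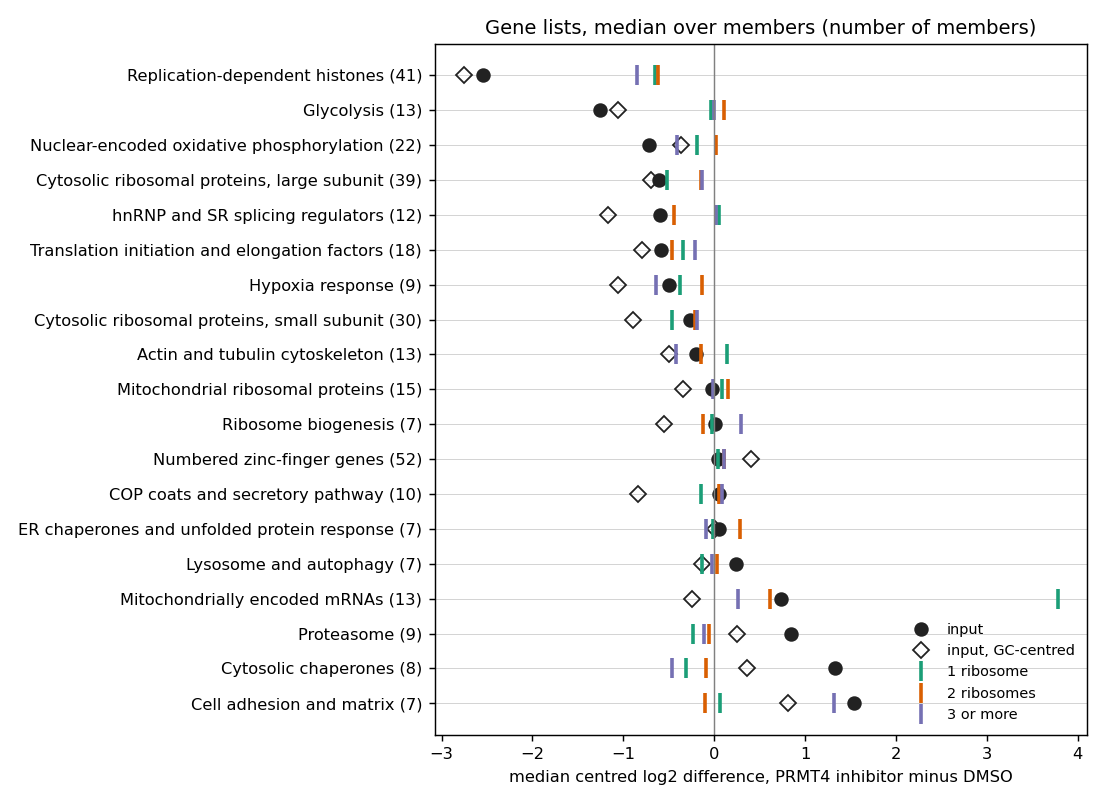
Median centred log2(FPKM + 1) difference, PRMT4 inhibitor minus DMSO (horizontal axis), of each gene list with at least 7 genes above the minimum (rows, number of genes in brackets). Filled circles are the input, open diamonds the GC-centred input and coloured bars the 3 ribosome fractions; glycolysis is at -1.26 in the input and within -0.04 to 0.11 in the fractions, and mitochondrially encoded mRNAs, at 0.73 in the input, are at -0.24 after GC centring.

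The mRNA of the inhibited enzyme itself was measured with a partner on the other strand. CARM1, opposite YIPF2, had 95.9, 119, 133 and 107 FPKM in the PRMT4 inhibitor libraries, against 62.05, 142, 129 and 84.9 FPKM in the DMSO libraries, an input difference of -0.19 (95% counting interval -0.96 to 0.64). Those values overlapped, and the DMSO input was the lowest of the 8. PRMT6, which also places asymmetric dimethylarginine and has no opposite-strand gene, had 19.1, 50.96, 41.7 and 37.7 FPKM in the PRMT4 inhibitor libraries, against 41.1, 47.6, 66.4 and 28.8 FPKM in the DMSO libraries (-1.87 in the input, 95% counting interval -2.67 to -1.19). In the fractions PRMT6 differed by 0.08, -0.73 and 0.31. PRMT1, below the minimum, had 1.9 against 16.2 FPKM in the inputs. PRMT5, the main symmetric methyltransferase, had 4.33 against 4.53 FPKM, and PRMT2, PRMT3, PRMT7 and PRMT9 had at most 6.48 FPKM in either input. Of 4 Mediator and coactivator genes above the minimum, MED16 had 320.1 against 68.2 FPKM (1.41), MED26 32.2 against 37.4 FPKM (-1.01) and NCOA4, which also sorts ferritin to autophagy, 72.95 against 8.27 FPKM (2.19). Of the SWI/SNF subunits SMARCD3 was lowest (85.7 against 123 FPKM, -1.32) and BRD7 highest (46.01 against 14.99 FPKM, 0.75).

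The ribosome fractions, which come from other libraries than the input, went with the input in part. Of the 694 genes at least 2-fold higher in the input, 43.4% were on the same side of the median with 1 ribosome, 61.7% with 2 and 62.8% with 3 or more, where 50.0% of all genes lie by construction. At least 1.5-fold higher were 103, 139 and 195 of them, the last 28.1%, against 21.6%, 15.8% and 19.4% of all genes. Of the 522 genes at least 2-fold lower, 34.5%, 60.7% and 65.5% lay on the same side, and 16.5%, 23.8% and 31.0% were at least 1.5-fold lower, against 20.9%, 14.0% and 16.7% of all. The heavier fractions thus leaned the way of the input, and the fraction of 1 ribosome the other way. Spearman's rho across the 2594 genes, which share their libraries, was -0.18 with 1 ribosome, 0.19 with 2 and 0.23 with 3 or more, and after GC centring -0.15, 0.19 and 0.22. Taken from the fractions, 43 genes (1.66%) were at least 1.5-fold higher in all 3 and had an input median of 0.31, with 13 at least 2-fold higher and 8 lower in the input. Another 50 (1.93%) were at least 1.5-fold lower in all 3, with an input median of -0.27. Without histones 40 of these were left, with a median of 0.05 and 11 genes on each side at 2-fold. Of all genes 26.8% were at least 2-fold higher in the input and 20.1% at least 2-fold lower.

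Agreement in all 4 library pairs, at least 2-fold in the input and 1.5-fold in each fraction, was reached by 13 higher genes (0.501%) and 20 lower ones (0.771%). Of the 694 genes higher in the input 1.87% were thus at least 1.5-fold higher in all 3 fractions, near the 1.66% of all genes, and of the 522 lower ones 3.83%, against 1.93% of all genes. The 20 included 9 histone genes. DCXR, a reductase of sugars and dicarbonyls with no opposite-strand gene, was the lowest of the other 11, with 7.01, 27.8, 19.8 and 40.5 FPKM in the PRMT4 inhibitor libraries, against 43.4, 58.5, 57.6 and 95.9 FPKM in the DMSO libraries. Its 4 PRMT4 inhibitor values were each below the matching DMSO value, as the rule of choice requires. The differences were -3.28 in the input (95% counting interval -6.39 to -0.98) and -1.06, -1.56 and -1.29 in the fractions. MLST8, a subunit of both mTOR complexes opposite BRICD5, had 13.1, 34.8, 19.3 and 9.73 FPKM in the PRMT4 inhibitor libraries, against 65.6, 54.5, 45.7 and 18.7 FPKM in the DMSO libraries. COTL1, which binds actin filaments, had 1.16, 19.6, 14.7 and 39.5 FPKM in the PRMT4 inhibitor libraries, against 6.53, 47.00, 37.5 and 62.98 FPKM in the DMSO libraries, so its input values were low, on 1 and 4 estimated fragments (95% counting interval -8.34 to 0.62). HOXA7, a body-pattern gene opposite HOXA-AS3, had 27.3, 37.5, 14.2 and 23.9 FPKM in the PRMT4 inhibitor libraries, against 63.8, 62.1, 124 and 61.1 FPKM in the DMSO libraries. Each PRMT4 inhibitor value of HOXA7 was below the matching DMSO value, as the rule of choice requires, and the 4 libraries of a treatment are not replicates. UBE2D3, a ubiquitin-conjugating enzyme opposite UBE2D3-AS1 (-1.54 in the input), and GAS8, of the ciliary dynein regulator (-1.49), were lower by less. RND2, a small GTPase (-1.43), RECQL4, a DNA helicase (-1.42), RPL35, opposite WDR38 (-1.12), ATP6V1G2, of the proton pump and opposite NFKBIL1 (-1.05), and TMEM160 (-1.03) completed the set. TMEM160, whose promoter is shown above, had 30.6, 21.1, 58.03 and 39.8 FPKM in the PRMT4 inhibitor libraries, against 35.8, 40.5, 113 and 58.2 FPKM in the DMSO libraries. Its input interval, -2.58 to 0.46, includes 0, as do those of COTL1, UBE2D3 and RPL35 among the 11.

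Of the 13 higher genes 12 had a symbol, and MT-ATP6 was the 1 of them with no gene listed on the opposite strand. TUBA8, a tubulin opposite an unnamed gene, was highest, with 43.96, 54.2, 38.3 and 26.6 FPKM in the PRMT4 inhibitor libraries, against 0.99, 33.7, 21.02 and 13.3 FPKM in the DMSO libraries (input 95% counting interval 1.65 to 9.59). Near-identical tubulin genes make its counts uncertain. OGN, given above, came next, and MTSS1, a membrane-bending protein opposite NDUFB9, had 42.8, 30.2, 42.2 and 22.4 FPKM in the PRMT4 inhibitor libraries, against 4.34, 18.00, 22.1 and 10.8 FPKM in the DMSO libraries. GNPTG, a subunit of the enzyme that tags lysosomal hydrolases and opposite UNKL, had 216, 109.9, 193 and 258 FPKM in the PRMT4 inhibitor libraries, against 44.5, 66.8, 122 and 135 FPKM in the DMSO libraries. All 4 of its library pairs were higher with the PRMT4 inhibitor, as the rule of choice requires. The differences were 1.45 in the input (95% counting interval 0.48 to 2.64, 2.03 GC-centred) and 0.70, 0.60 and 0.87 in the fractions. SERPIND1, heparin cofactor II, in an intron of PI4KA, had 28.6, 55.4, 62.6 and 44.6 FPKM in the PRMT4 inhibitor libraries, against 4.47, 31.5, 25.6 and 16.6 FPKM in the DMSO libraries. MBD6, a methyl-CpG-binding family member opposite DDIT3 and DCTN2, had 55.6, 77.6, 98.8 and 60.8 FPKM in the PRMT4 inhibitor libraries, against 12.6, 42.5, 25.6 and 28.02 FPKM in the DMSO libraries. ESYT1, a membrane tether (81.9 against 19.9 FPKM in the input), ZNF432 (a difference of 1.12), MT-ATP6 (1.10), ACSM3 (1.04), EXOSC8, of the RNA exosome and opposite SUPT20H (1.03), and NDUFA3, of complex I and opposite TFPT (1.01), completed the set. The input intervals of MBD6, ESYT1, ZNF432, MT-ATP6, ACSM3 and NDUFA3, 6 of the 12, include 0. After GC centring 6 higher and 20 lower genes met the same rule.

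**Figure D5:**
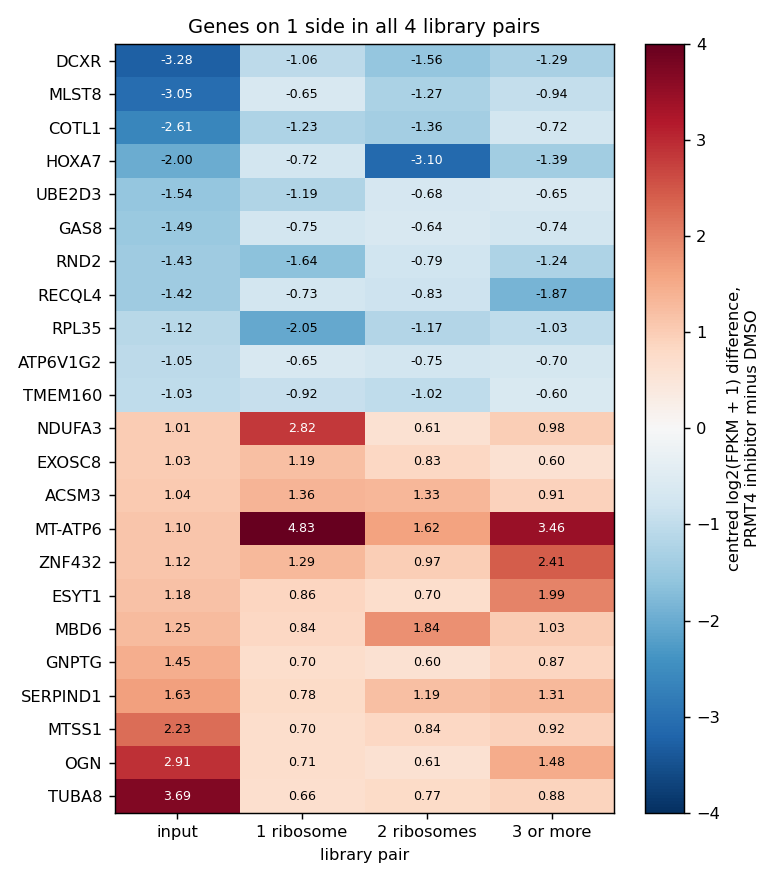
Centred log2(FPKM + 1) difference, PRMT4 inhibitor minus DMSO (colour and printed value), in the input and the 3 ribosome fractions (columns) for the 11 lower and 12 higher named genes that met the size rule in all 4 pairs, histones left out. The lowest input difference is that of DCXR, -3.28, and the highest that of TUBA8, 3.69.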

How the data were processed

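FPKM values of 12 libraries were used as the authors deposited them, rounded to 2 decimals, 1 library for each of 3 treatments in the input and 3 ribosome fractions. Per the labels' protocols, treated HEK293T cells were lysed, the lysate was spun through sucrose gradients of 10 to 50%, and TRIzol was used to extract the RNA; the kit was NEBNext Ultra II, directional. Per the submitters' processing notes, cutadapt 1.18, STAR 2.5.3a and RSEM were used with GRCh37. The strand setting, RNA selection, compounds, doses and times are not given in the sources used here. Columns named R1, R2 and R3 were read as the fractions of 1, 2 and 3 or more ribosomes from the numbers in the sample titles.

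Differences of log2(FPKM + 1) were taken for genes with a mean of at least 20 FPKM and centred on their median. No count test was possible and no p-value is given, since the table holds FPKM and each group has 1 library. Fragments were estimated from the steps of low FPKM values in genes with 1 transcript longer than 800 bases, of which 92.6% to 95.5% per library fell within 0.1 of a whole number. The 95% Clopper-Pearson intervals of the ratio of fragments, less the centring shift, cover counting error only, since reads without molecular identifiers are not independent molecules. Gene symbols, transcript GC content and opposite-strand genes came from GENCODE 29, which annotates another build and was used for names and neighbours. The scripts were tested on simulated data. Python 3.11.15, numpy 2.4.6, pandas 2.3.3 and scipy 1.17.1 were used.

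The genes named were the 10 highest and 10 lowest input differences with no opposite-strand exon and above 0 in all 8 libraries, the 6 highest and 6 lowest that agreed in all fractions, the 4 highest and 4 lowest with an opposite-strand exon, the 5 highest and 5 lowest of at least 100 FPKM, the 3 best measured at 0 in 1 input, and examples from each list. Replication-dependent histones were left out. A few genes that this rule names are not reported here. The genes and lists were chosen with earlier results of these data known. Alternatives tried were the pseudocount, the minimum, the centring, the fold in the fractions, and leaving out genes at 0 or with opposite-strand genes. GC centring and leaving out genes inside an opposite-strand gene were chosen after the data were seen.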

Additional observations from a re-analysis of the deposited data

How the results depend on the processing

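With 1 library per group the spread between cultures is unknown, and the estimated counts behind low genes were under 10 fragments in 23.1% of genes in the PRMT4 inhibitor input and 42.6% in the DMSO input. No paired analysis was possible because no 2 libraries are replicates of 1 group and the labels number none. Counts are given as genes higher in the input, lower in the input, higher in all 4 pairs and lower in all 4 pairs, which were 694, 522, 13 and 20 as reported. A minimum of 5 FPKM gave 1752, 1392, 65 and 56 of 6072 genes, a minimum of 50 gave 303, 215, 6 and 9 of 1241, and no minimum gave 4416, 1795, 166 and 53 of 15534, since other numbers of genes enter. No centring gave 1158, 202, 27 and 10. Without genes that have an opposite-strand exon the counts were 188, 230, 3 and 12 of 819, and without genes inside the body of an opposite-strand gene 117, 211, 1 and 12 of 650. A pseudocount of 5 left 7 genes higher in all 4 pairs, GC centring 6, and a 2-fold limit in each fraction left 1 higher and 3 lower. For the other settings of these counts, among them a pseudocount of 0.1, upper-quartile scaling and leaving out genes at 0, the counts stayed within 1.5 times those reported. Of 340 list medians under other settings, 67 changed sign, and 21 of these were of lists whose reported median was past 1.5-fold; the others that did were of lists nearer to 0. Of the 21, the sign changed at a minimum of 5 FPKM for the TCA cycle (0.25), serine and nucleotide synthesis (0.23), mitosis (0.42), translation factors (0.45), the proteasome (-0.48) and the nuclear pore (-0.17), and at 50 FPKM for serine and nucleotide synthesis (0.15). With no minimum it changed for PRMT4 substrates (0.17), the TCA cycle (0.27), serine and nucleotide synthesis (0.85), large-subunit ribosomal proteins (0.04), translation factors (1.27) and the proteasome (-0.04). With no centring, which adds 0.81 to every gene, it changed for cholesterol synthesis (0.03), mitosis (0.04), large-subunit ribosomal proteins (0.19), translation factors (0.22), oxidative phosphorylation (0.08) and splicing regulators (0.21). It also changed for mitochondrially encoded mRNAs under GC centring (-0.24) and for mitosis without genes inside an opposite-strand gene (0.12). The glycolysis median stayed below 0 in every setting tried, and was -0.56 at a minimum of 5 FPKM, -0.40 with no minimum, -0.45 with no centring and -0.58 without genes inside an opposite-strand gene. Each minimum was centred on the median of the genes that entered. The same 47 large-subunit genes had a median of -0.59 at a minimum of 5 FPKM and 0.04 with no minimum. The same 33 small-subunit genes had -0.16 and 0.48, and the 13 mitochondrially encoded mRNAs 0.75 and 1.39. For these lists only the centring differed between the settings. Apart from the centring, the cause of the changes between settings was not tested.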
